A study of Tetranychus urticae with 24 samples.

Results

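The genes described here had lower mRNA levels both in mites treated with PBO and in mites treated with DEF than in mites treated with formulation (FORM). They were chosen from these libraries by a rule on group means of CPM, the counts of a gene scaled to a common library total. For each treatment the difference L was log2 of the treated mean CPM plus 0.5 over the FORM mean CPM plus 0.5. A gene had to reach a mean of at least 2 CPM in FORM, an L of at most −0.5 with both PBO and DEF, and an L under 0.5 with DEM. Of 19087 genes, 61 passed these thresholds. The rule further leaves out 15 genes by ID, of which 8 were among the 61, so that 53 members remained. All 53 had reads in every library and were among the 12736 genes with enough counts to be tested.

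All libraries came from whole adult females of *Tetranychus urticae*, 3 to 5 days old, of the single laboratory strain JP-R, which is resistant to the acaricides cyenopyrafen and cyflumetofen. Mites were sprayed with 1000 ppm PBO, which inhibits cytochrome P450s, 500 ppm DEF (S,S,S-tributyl phosphorotrithioate), which inhibits esterases, 2000 ppm DEM, which depletes glutathione, or 50 ppm CsA, a modulator of ABC transporters. The solvent and emulsifier alone were sprayed in FORM, and unsprayed mites (CON) were the second control. RNA was taken from the mites alive after 24 h, in pools of about 100 females and with 4 biological replicates per group, so that a value describes a pool and not a mite.

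Synergists are compounds that block detoxification and so raise the toxicity of an insecticide or acaricide. PBO and DEF act on different enzyme families, although each is known to touch the target of the other to some extent. An adult female mite is largely an egg-producing animal, and her RNA mixes ovary, gut, nervous system, silk gland and epidermis.

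Library totals ran from 13824851 to 18198286 counts. Replicates of 1 group always differed by more than counting error, with a chi-square over its degrees of freedom of 3.47 to 54.1. For 4 libraries singled out here the members stood apart from the other replicates: replicate 1 of DEF, replicate 1 of DEM and replicate 4 of CsA on the low side and replicate 3 of CON on the high side. Other libraries leaned as well. Replicate 1 of CON was the lowest of its group for 35 members (34.6% of all genes tested). Replicate 3 of DEF was the highest of its group for 30 (20.2%) and replicate 3 of FORM for 29 (30.6%). Without replicate 3 of FORM 43 genes passed the rule, 39 of them members. Some of the counts and medians over the members that rest on the 4 libraries singled out are also given without them. Germline, yolk, cuticle and silk genes were looked at as markers, and none of them had a mean of 0 CPM in any group. Their presence does not test the whole-animal label, since any sample holding some of these tissues would pass.

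**Figure D1:**
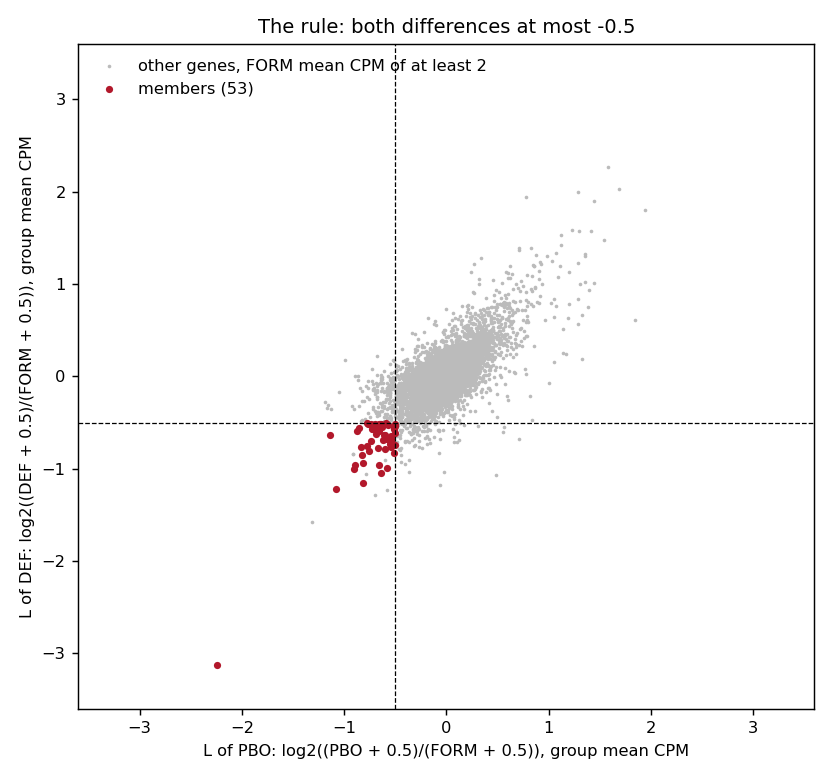
Difference L from the FORM mean with PBO (x axis) and with DEF (y axis), both log2 on group mean CPM plus 0.5, for every gene with at least 2 CPM in FORM. The 53 members (red) lie left of and below the dashed thresholds at −0.5, and 1 of them, tetur06g04890, lies far from the rest. Grey points in that corner were left out by ID or by their level with DEM. Both axes share the FORM libraries, so points tend to fall along the diagonal.

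Described proteins were a minority of the members. The tables of the study describe 13 of the 53 by something other than a hypothetical protein, list 23 as hypothetical proteins and do not describe 17. A gene stands in those tables because the study selected it on the same libraries, by a call or, for the 2 transcription factors, by the direction of its change, so a description is not independent evidence of a direction. Among the 13 were 3 proteins of the extracellular matrix or of cell adhesion, a germline RNA helicase, 2 transcription factors, 2 oxidoreductases, 2 hydrolases, a methyltransferase, a lipid-binding protein and a phosphatase subunit. None of the 13 was described as a P450, an esterase, a glutathione transferase or a transporter, and the families of the other members are not given. The alpha/beta hydrolase tetur17g03230 has a fold that esterases share.

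With PBO the member means lay at 16.8 to 70.5% of the FORM mean, with a median of 61.3%, and with DEF at 6.54 to 68.7%, with a median of 62.1%. Leaving out tetur06g04890, the lowest were 38.7% with PBO and 34.6% with DEF. The differences were therefore mostly less than 2-fold. In a fit of all 24 libraries with edgeR's quasi-likelihood test, 34 members were called lower with PBO than with FORM, against a background of 1.59% of all genes tested. A call needed a Benjamini-Hochberg adjusted p under 0.05 and a fold change (FC) of 1.5 or more. With DEF 43 were called lower, against 1.2%. Both calls were made for 32 members (0.345% of all genes). The call with PBO alone was made for 2 (158 of the 12736 genes tested), with DEF alone for 11 (109 genes) and neither for 8 (12425 genes). All 4 libraries lay below all 4 FORM libraries in 48 members with PBO (8.48% of all genes) and in 44 with DEF (6.22%). The rule used these contrasts, so the counts describe the members and nothing is read from them.

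At the edge of the rule, tetur08g05810, tetur13g01520, tetur06g05630, tetur08g07600 and tetur33g00540 lay just inside, with the weaker of their 2 differences between −0.51 and −0.50. Just outside lay tetur02g13360 at −0.49, tetur01g02540 at −0.49, tetur18g03360 at −0.49, tetur21g00990 at −0.49 and tetur04g09508 at −0.48. The threshold thus cuts through a continuous cloud. Leaving out 1 library at a time, 24 of the 53 members passed the rule in all 16 settings and 29 failed it in at least 1.

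**Figure D2:**
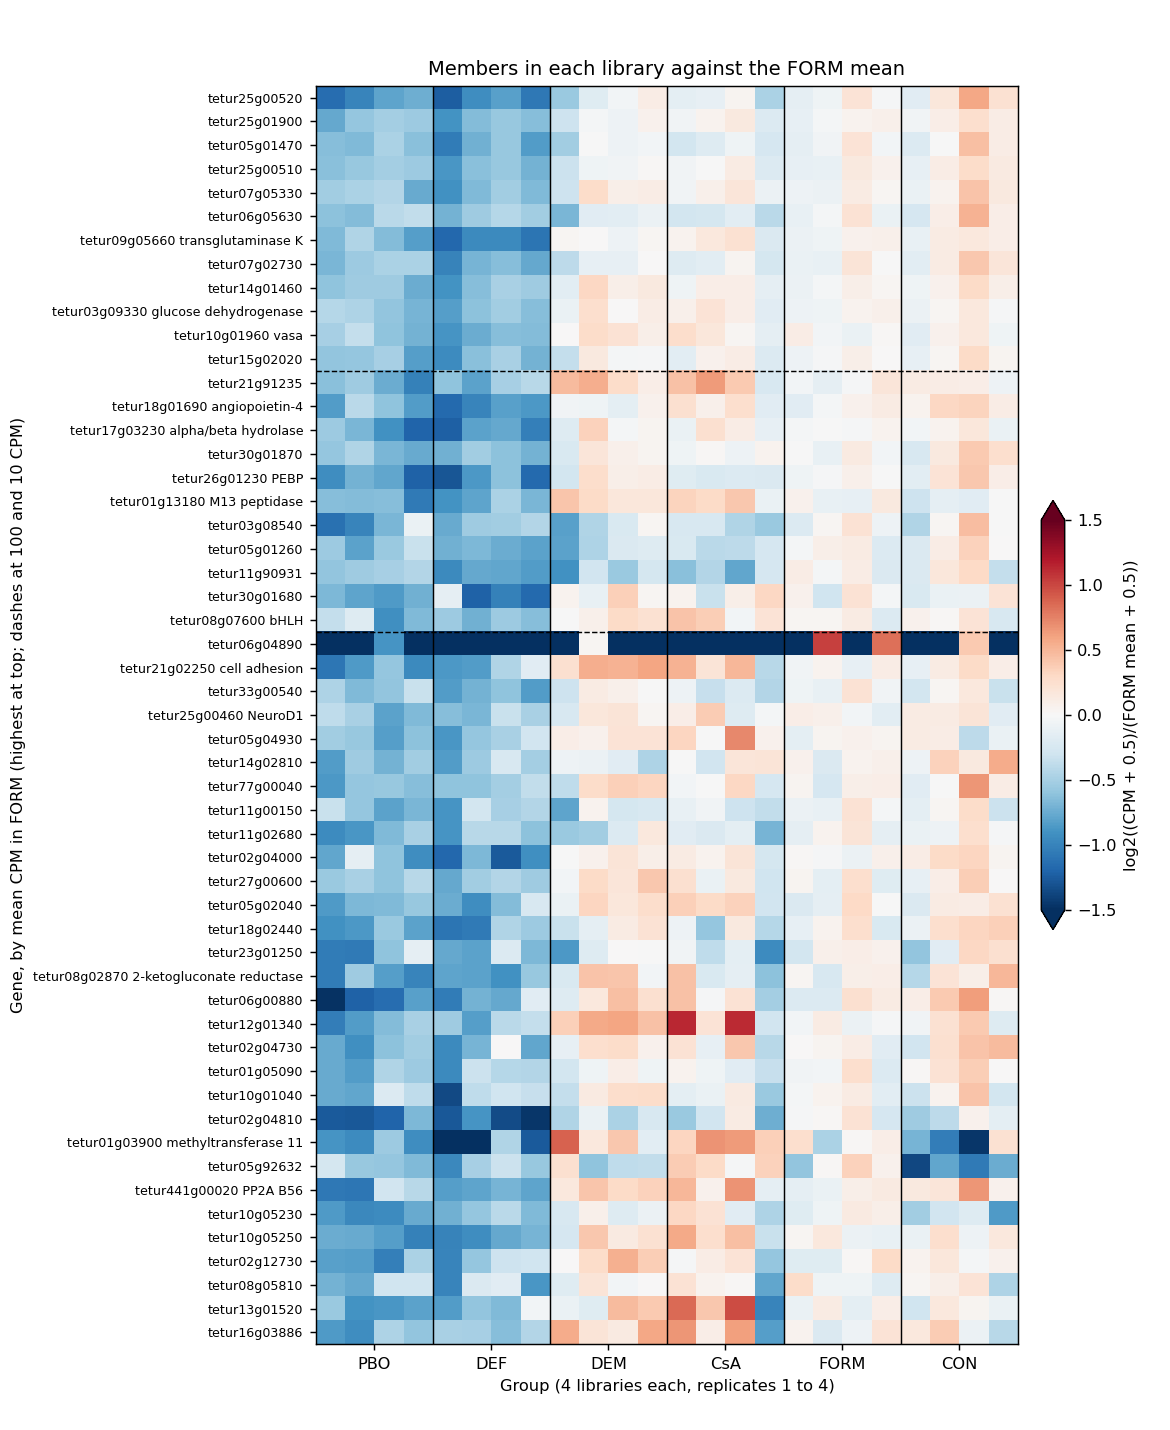
Each member (rows, by mean CPM in FORM, highest at the top) in each of the 24 libraries (columns, by group), as log2 of CPM plus 0.5 over the FORM mean plus 0.5. The PBO and DEF columns are blue for nearly all members, while replicate 1 of DEM, replicate 4 of CsA and replicate 3 of CON differ from their own groups.

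Of the 3 described genes of the extracellular matrix and adhesion, tetur09g05660 had the lowest level relative to FORM with DEF but the highest with PBO. It is described as protein-glutamine gamma-glutamyltransferase K, a transglutaminase, and such enzymes cross-link proteins. It had 303, 351, 306 and 271 CPM with PBO and 212, 247, 248 and 224 CPM with DEF, against 453, 458, 503 and 505 CPM with formulation. Its level was 491, 483, 457 and 491 CPM with DEM, 496, 534, 562 and 412 CPM with CsA and 443, 524, 535 and 514 CPM in CON. Every DEF library was below every PBO library, and every PBO library was below all 16 other libraries. Only 2 members had all 4 DEF libraries under all 4 PBO libraries, against 3.57% of all genes tested, the other being the hypothetical protein tetur11g90931.

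The gene tetur18g01690 is described as an angiopoietin-4 precursor, in mammals a secreted ligand of a vascular receptor kinase. It had 31.2, 42.5, 37.0 and 31.3 CPM with PBO and 24.7, 28.0, 31.8 and 30.7 CPM with DEF, against 49.8, 55.2, 58.9 and 61.4 CPM with formulation. Unsprayed mites had 58.4, 69.8, 70.9 and 60.8 CPM. No PBO or DEF library reached the lowest library of any other group. The third, tetur21g02250, a putative cell adhesion molecule, had 3.83, 4.62, 5.65 and 4.25 CPM with PBO and 4.55, 4.65, 6.21 and 7.67 CPM with DEF, against 8.34, 9.05, 7.96 and 9.46 CPM with formulation. With DEM it had 10.3, 12.9, 12.7 and 13.3 CPM, and every one of these libraries lay above every FORM library. Replicate 4 of CsA, at 6.39 CPM, was below all FORM libraries, while the other CsA libraries, at 12.7, 10.04 and 12.5 CPM, were above them.

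Of the list of 19 genes for the extracellular matrix and adhesion, from the same tables, 7 were called lower and 10 higher with PBO, and 3 lower and 4 higher with DEF. Its median log2 FC was 0.70 with PBO and 0.22 with DEF, against 0.00 for all genes tested in both comparisons, and its 6 cuticle genes were all called higher with PBO and none of them was called with DEF. The 3 members thus lay opposite to the median of their own list. No direction of this list is independent evidence, as the study drew it from these libraries.

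**Figure D3:**
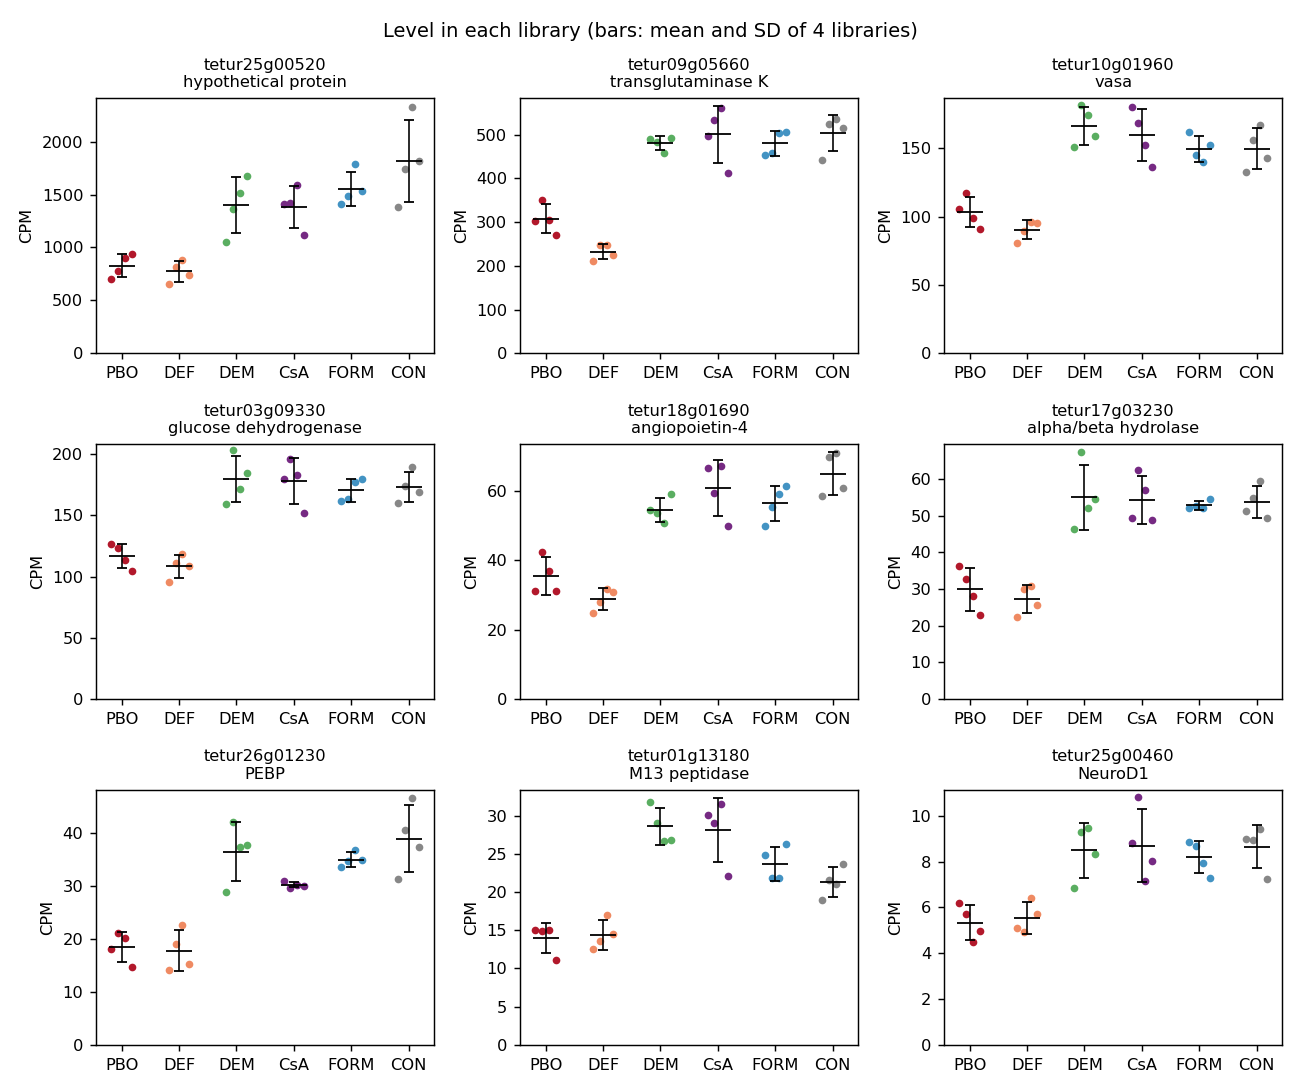
CPM in each of the 4 libraries of the 6 groups (points) with mean and SD (bars), for 8 described members and for tetur25g00520. In all 9 panels the PBO and DEF points lie below the FORM and CON points, and for tetur09g05660 the DEF points also lie below the PBO points.

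Vasa is an RNA helicase that marks the germline, known best from *Drosophila*. The member tetur10g01960, described as vasa, had 106, 117, 98.7 and 91.2 CPM with PBO and 81.0, 89.5, 96.1 and 95.3 CPM with DEF, against 162, 145, 139.7 and 152 CPM with formulation. With DEM it had 151, 182, 174 and 159 CPM, with CsA 180.1, 169, 153 and 136 CPM and in CON 133, 156, 167 and 143 CPM. All 8 PBO and DEF libraries were below all 16 others. A second gene described as vasa, tetur10g01980, missed the threshold of the rule with PBO: it averaged 80.3 ± 8.91 CPM with PBO and 64.3 ± 3.85 CPM with DEF, against 111 ± 4.597 CPM with formulation and 121 ± 9.22 CPM in CON (SD, n = 4). In RNA of whole mites, fewer germline cells and less of this RNA in each cell cannot be told apart.

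The 2 vasa genes together summed to 160 to 203 CPM with PBO and 142 to 166 CPM with DEF, against 253 to 275 CPM with formulation. The 2 vitellogenin genes, which code for yolk protein, went the other way, at 1125 to 1368 CPM with PBO and 1324 to 1779 CPM with DEF, against 832 to 1021 CPM with formulation. Vitellogenin is made outside the oocyte in many arthropods. The 6 cuticle genes summed to 172 to 337 CPM with PBO and 104 to 161 CPM with DEF, against 88.3 to 132 CPM with formulation, and the 3 silk genes to 45.9 to 63.0 CPM with PBO and 57.1 to 90.9 CPM with DEF, against 35.3 to 43.4 CPM with formulation. Unsprayed mites had 242 to 297 CPM of vasa, 603 to 922 CPM of vitellogenin, 95.3 to 127 CPM of the cuticle genes and 63.9 to 97.4 CPM of the silk genes, so that the silk sum was lower in every PBO library than in CON. These sums differed among the groups that define the members, and their part in the members' levels was not tested. Of the list of 6 germline and yolk genes, 2 were called lower and 1 higher with PBO, and 4 lower and 2 higher with DEF.

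Transcription factors were present at low read numbers. The gene tetur25g00460, described as Neurogenic differentiation factor 1, which in vertebrates drives neurons and endocrine cells to differentiate, had 6.20, 5.70, 4.48 and 4.98 CPM with PBO and 5.09, 4.93, 6.42 and 5.71 CPM with DEF, against 8.85, 8.70, 7.96 and 7.30 CPM with formulation. The bHLH gene tetur08g07600, of the Myc type of DNA-binding domain, had 8.14, 9.18, 5.34 and 6.51 CPM with PBO and 7.07, 6.22, 7.06 and 6.58 CPM with DEF, against 10.8, 10.8, 11.5 and 9.13 CPM with formulation. For tetur25g00460 the PBO and DEF libraries did not overlap the FORM libraries, whereas for tetur08g07600 replicate 2 of PBO was above the lowest FORM library. Both genes belong to a list of 10 transcription factors of the study, of which 2 were called lower with PBO and 4 with DEF. The study had drawn that list from these libraries by a shared change with PBO and DEF that runs against CsA and DEM, so nothing is read from its counts.

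Both described oxidoreductases act on sugars or sugar acids. The glucose dehydrogenase tetur03g09330, which oxidises glucose in *Drosophila*, had 126, 123, 113 and 105 CPM with PBO and 95.7, 111, 118 and 109 CPM with DEF, against 161, 163, 177 and 179 CPM with formulation. No PBO or DEF library reached the lowest of the other 16, at 151 CPM in replicate 4 of CsA. The 2-ketogluconate reductase tetur08g02870, known from bacteria, had 1.82, 2.82, 2.21 and 1.93 CPM with PBO and 2.28, 2.26, 2.07 and 2.75 CPM with DEF, against 4.42, 3.56, 4.597 and 4.66 CPM with formulation. It varied more in the other groups, with 2.63 CPM in replicate 4 of CsA and 6.01 CPM in replicate 1. In the list of 39 oxidoreductases, which holds many P450s and short-chain dehydrogenases, 1 gene was called lower and 20 higher with PBO, and 6 lower and 15 higher with DEF.

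Both hydrolases had levels near 50 to 65% of the FORM mean. The alpha/beta hydrolase fold is shared by esterases and lipases, and its member tetur17g03230 had 36.1, 32.6, 27.9 and 22.8 CPM with PBO and 22.4, 30.0, 30.8 and 25.8 CPM with DEF, against 51.9, 52.5, 52.1 and 54.6 CPM with formulation. The FORM libraries lay close together and far above every PBO and DEF library. The M13 family peptidase tetur01g13180, of the zinc metallopeptidases to which neprilysin belongs, had 15.002, 14.9, 15.05 and 11.1 CPM with PBO and 12.5, 13.5, 16.98 and 14.5 CPM with DEF, against 24.9, 21.9, 21.8 and 26.3 CPM with formulation. Here DEM, at 31.8, 29.1, 26.7 and 26.8 CPM, was above FORM in every library. Of the 23 peptidases and other hydrolases on the list, 4 were called lower and 8 higher with PBO, and 4 lower and 12 higher with DEF.

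The phosphatidylethanolamine-binding protein tetur26g01230, of a family that in mammals includes an inhibitor of Raf kinase, had 18.1, 21.2, 20.1 and 14.8 CPM with PBO and 14.1, 19.1, 22.7 and 15.3 CPM with DEF, against 33.6, 34.7, 36.8 and 34.9 CPM with formulation. Its means were 53% of FORM with PBO and 50.8% with DEF. With CsA it stood at 30.9, 29.7, 30.3 and 30.1 CPM, just below every FORM and CON library. The B56 subunit of protein phosphatase 2A, tetur441g00020, which directs the phosphatase to its substrates, had 1.03, 1.02, 2.15 and 1.93 CPM with PBO and 1.32, 1.37, 1.498 and 1.37 CPM with DEF, against 2.44, 2.51, 2.95 and 3.04 CPM with formulation. All its PBO and DEF libraries were below all 16 others.

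The methyltransferase tetur01g03900, of the type 11 that transfers methyl groups from S-adenosylmethionine, had 1.46, 1.38, 1.97 and 1.39 CPM with PBO and 0.779, 0.547, 2.14 and 1.01 CPM with DEF, against 3.80, 2.10, 3.16 and 3.38 CPM with formulation. Its FORM libraries were uneven, and replicate 3 of DEF was above the lowest of them. Unsprayed mites had 1.73, 1.26, 0.813 and 3.73 CPM, so 3 of the 4 CON libraries lay in the range of the PBO and DEF libraries.

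Most reads of the members came from hypothetical proteins. CPM are not per gene length, so they rank members by reads and not by transcripts. The 5 with the most reads in FORM were tetur25g00520, tetur25g01900, tetur05g01470, tetur25g00510 and tetur07g05330, all described as hypothetical. The first had 703, 779, 898 and 936 CPM with PBO and 658, 812, 884 and 739.6 CPM with DEF, against 1413, 1483, 1784 and 1532 CPM with formulation and 1381, 1746, 2329.6 and 1813 CPM in CON. The highest PBO or DEF library, at 936 CPM, was below the lowest of the other 16, replicate 1 of DEM at 1053 CPM. The other 4 averaged 412 to 664 CPM with PBO and 375 to 626 CPM with DEF, against 601 to 1005 CPM with formulation.

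Summed over the 53 members, the share of all counts was 0.440 to 0.493% with PBO and 0.370 to 0.474% with DEF. It was 0.574 to 0.760% with DEM, 0.610 to 0.773% with CsA, 0.682 to 0.808% in FORM and 0.667 to 0.962% in CON. The ranges of PBO and DEF overlapped each other and no other group.

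By the mean of both differences, the lowest levels relative to FORM ranged from genes with few reads to the member with the most reads, tetur25g00520. They were led by tetur06g04890 and tetur02g04810, followed by tetur01g03900, the same tetur25g00520, tetur26g01230, tetur06g00880, tetur17g03230, tetur09g05660, tetur10g05250 and tetur18g01690. The hypothetical protein tetur02g04810 had 1.15, 1.14, 1.23 and 1.99 CPM with PBO and 1.14, 1.64, 1.07 and 0.940 CPM with DEF, against 3.403, 3.50, 4.12 and 2.84 CPM with formulation. No PBO or DEF library overlapped the FORM or CON libraries, although replicate 4 of CsA, at 1.88 CPM, lay below replicate 4 of PBO.

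For tetur06g04890 a few libraries decide the membership. It had 0.0567, 18.7, 0.755 and 16.2 CPM in FORM, so that 2 libraries carry the FORM mean, and single high libraries also occurred with PBO (replicate 3, 4.61 CPM), with DEM (replicate 2, 9.16 CPM) and in CON (replicate 3, 11.9 CPM). All other libraries were at or under 0.999 CPM. By edgeR's quasi-likelihood test it was called in none of the comparisons made here, while DESeq2 called it lower with DEF and with CsA than with FORM.

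The hypothetical proteins tetur06g00880 and tetur10g05250 were called lower with both compounds. The first had 1.15, 1.5002, 1.60 and 2.13 CPM with PBO and 1.74, 2.33, 2.21 and 3.62 CPM with DEF, against 3.52, 3.50, 4.94 and 4.53 CPM with formulation. Its replicate 4 of DEF reached the range of FORM, and its PBO libraries did not. The second had 1.40, 1.38, 1.29 and 1.06 CPM with PBO and 1.08, 1.16, 1.36 and 1.45 CPM with DEF, against 2.72, 3.04, 2.47 and 2.43 CPM with formulation, with no overlap.

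Members differed in which of PBO and DEF gave the lower level. The DEF mean was below the PBO mean for 31 of 53 members. Among the 12 members over 100 CPM in FORM this held for all 12, and among the 30 under 10 CPM for 11. The median log2 FC was −0.59 with PBO and −0.72 with DEF for the first of these groups and −0.83 with PBO and −0.70 with DEF for the second. For the 12 members over 100 CPM, the library medians relative to the FORM mean were −0.62, −0.56, −0.51 and −0.71 with PBO. With DEF the median was −0.90 in replicate 1 and −0.66, −0.57 and −0.68 in the others, which lie within the PBO range. The counts of members with the lower DEF mean were not made without replicate 1 of DEF. They were also not made over all genes at these levels, and the rule used both means, so nothing is read from them. Only tetur10g05230 had all 4 PBO libraries below all 4 DEF libraries (6.67% of all genes tested). These are values against the same FORM libraries, and the difference between the compounds was not tested. Their doses also differed.

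One DEF library weighs on these values. Replicate 1 of DEF was the lowest of its group for 38 members, against 22.2% of all genes tested. It was also the lowest of all 24 libraries for 24 members. The rule favours that last count by asking for low DEF levels, and it was not made over all genes. Without replicate 1 of DEF 36 genes passed the rule, all of them members, 30 members were called lower with DEF (0.826% of all genes), and the median log2 FC with DEF was −0.65 in place of −0.72.

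**Figure D4:**
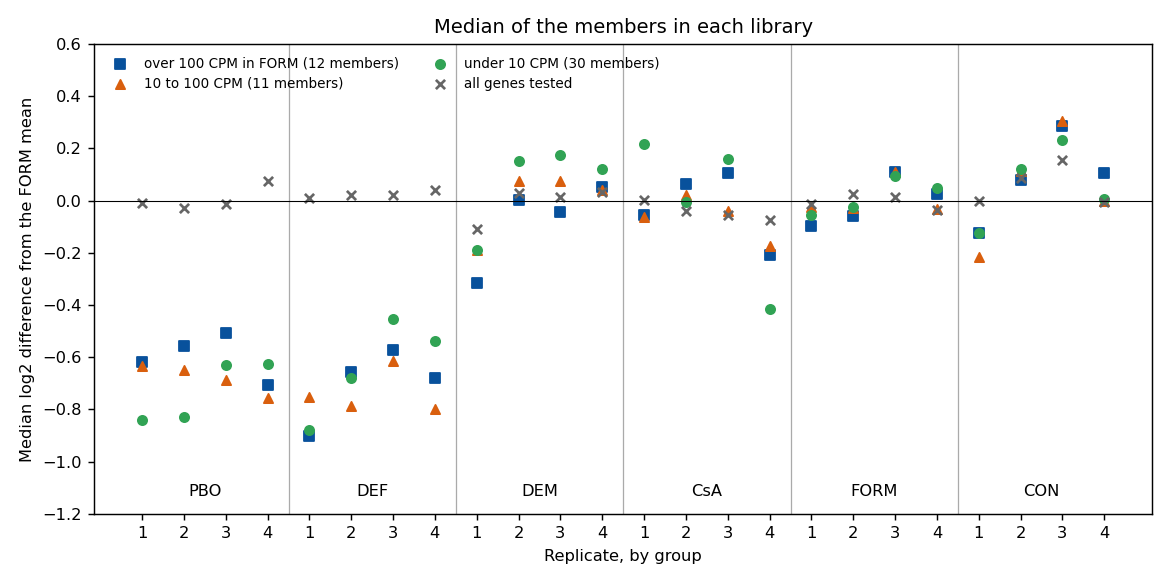
Median log2 difference from the FORM mean over the members in each library, split by mean CPM in FORM, with the median of all genes tested as crosses. All PBO and DEF medians lie at or below −0.45, and the other 16 libraries stay between −0.42 and 0.30.

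Against unsprayed mites, whose libraries the rule did not use, the PBO and DEF levels were lower as well. Of the 53 members 37 were called lower with PBO than in CON (3.49% of all genes) and 39 with DEF (1.89%), 34 of them with both (0.864%). The median log2 FC of the members was −0.70 with PBO and −0.74 with DEF, against 0.00 and −0.01 for all genes. Since the PBO and DEF libraries had chosen the members, these are descriptions and no test. Without replicate 3 of CON the counts were 33 with PBO (2.69%) and 37 with DEF (1.16%), and without replicate 1 of DEF the count with DEF was 35 (1.25%). In 21 members all 8 PBO and DEF libraries were below all 16 others, and in 37 they were below all FORM and CON libraries; of all genes tested this held for 0.707% and 1.57%. Without replicate 1 of DEM, replicate 4 of CsA and replicate 3 of CON, a choice made after seeing the data, the counts were 33 (1.24%) and 38 (1.61%). Without replicate 1 of DEF alone they were 22 (0.715%) and 38 (1.6%). Only tetur05g92632 had PBO and DEF means above its CON mean, with means of 1.83 CPM with PBO and 1.73 CPM with DEF, against 2.81 CPM in FORM but 1.19 CPM in CON.

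Formulation and unsprayed mites were close. The median log2 FC of FORM against CON was −0.01 for the members and 0.00 for all genes. No member was called by edgeR's quasi-likelihood test in either direction (0.0157% of all genes lower, 0.00785% higher), while at an unadjusted p of 0.05 there were 0 lower (1.96% of all genes) and 3 higher (3.15%), and DESeq2 called 1 higher. In 2 members, tetur05g92632 and tetur10g05230, all FORM libraries lay above all CON libraries (1.09% of all genes). Without replicate 3 of CON the median of the members was 0.02, edgeR again called none in either direction (0.00778% of all genes higher, 0% lower), and both genes still did not overlap (2.09%). The rule requires a high FORM level, so this comparison is a description too.

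With DEM the members had a median log2 FC of 0.06 against FORM, and with CsA of 0.05. No member was called with DEM (0.526% of all genes lower, 1.69% higher) or with CsA (0.487% lower, 0.612% higher) by edgeR's quasi-likelihood test. At an unadjusted p of 0.05, 3 members were lower (13.4% of all genes) and 4 higher (15.1%) with DEM. With CsA 5 were lower (12.3%) and 5 higher (12.6%). DESeq2 called none with DEM and 1 in each direction with CsA. For DEM the rule itself excluded a difference L of 0.5 or more. All 4 DEM libraries exceeded all 4 FORM libraries for tetur01g13180, tetur12g01340, tetur21g02250 and tetur441g00020 (11.2% of all genes) and lay below them for tetur11g90931 (5.88%).

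Replicate 4 of CsA and replicate 1 of DEM were each the lowest of their group for 40 of 53 members, against 34.3% and 58.3% of all genes tested. The median of the members was −0.26 in replicate 4 of CsA, against 0.02 to 0.12 in its other replicates, and −0.23 in replicate 1 of DEM, against 0.07 to 0.12. For the 30 members with few reads it was −0.42 in replicate 4 of CsA. Without that library the median log2 FC with CsA against FORM was 0.12 and 1 member was called lower (0.74% of all genes) and 2 higher (3.26%). Without replicate 1 of DEM the median with DEM was 0.09 and still none was called (0.335% lower, 0.616% higher). Replicate 3 of CON was the highest of its group for 38 members, against 51.1% of all genes.

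The comparison of CsA with unsprayed mites is the only one in which the rule used the libraries of neither group, and it alone was tested. It differs both by CsA and by the spray. FORM shares that spray, and the rule requires a high FORM level. Members were also chosen with earlier results of these data known, so the share of calls among them is not independent of the choice. Of the 53 members 4 were called higher with CsA than in CON (7.55%, against 1.68% of all genes) and 0 lower (0.981%) by edgeR's quasi-likelihood test. At an unadjusted p under 0.05, 10 were higher (15.1% of all genes) and 5 lower (14.6%), and DESeq2 called 4 higher and 0 lower. The median log2 FC was 0.00 for the members and 0.01 for all genes. For the members it was 0.05 without replicate 4 of CsA and 0.04 without replicate 3 of CON. Without both, a choice made after seeing the data, it was 0.09. The median of all genes was 0.01 in each of these settings. With all libraries kept, the log2 FC plus and minus 2 SE stayed within an FC of 1.5 either way in 37 members. All CsA libraries lay above all CON libraries in 2 members (2.61% of all genes) and below them in 3, tetur05g01260, tetur11g02680 and tetur26g01230 (14.1%).

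The largest of the 4 was tetur05g92632, which the tables do not describe. It had 3.81, 3.54, 2.77 and 3.70 CPM with CsA, against 0.781, 1.44, 1.08 and 1.48 CPM in CON, which are 40 to 59 counts against 14 to 25. All CsA libraries were above all CON libraries. Its log2 FC was 1.63 ± 0.26 (SE), for which edgeR gave a Benjamini-Hochberg adjusted p of 0.000411, and its call held with every CsA or CON library left out. Its FORM libraries, at 1.70, 2.86, 3.71 and 2.97 CPM, were also above all CON libraries, and its log2 FC of CsA against FORM was 0.35.

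The methyltransferase tetur01g03900 had 4.01, 5.25, 5.13 and 4.14 CPM with CsA, against 1.73, 1.26, 0.813 and 3.73 CPM in CON. Every CsA library exceeded every CON library, the nearest being replicate 4 of CON. Its log2 FC was 1.39 ± 0.35 (SE), with an adjusted p of 0.0207 from edgeR.

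The other 2 overlapped between groups. The hypothetical protein tetur10g05230 had 3.47, 3.22, 2.36 and 1.82 CPM with CsA, against 1.73, 2.12, 2.30 and 1.29 CPM in CON (log2 FC 0.64, SE 0.18, adjusted p = 0.0286, edgeR). Its CsA mean was 146% of the CON mean but 100% of the FORM mean, and all its FORM libraries lay above all CON libraries. The hypothetical protein tetur12g01340 had 9.42, 4.72, 9.35 and 3.20 CPM with CsA, against 3.85, 4.82, 5.42 and 3.47 CPM in CON (log2 FC 0.70, SE 0.22, adjusted p = 0.0476, edgeR). Replicates 1 and 3 of CsA carry this difference, and replicates 2 and 4 lie within or below the CON range.

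Single libraries moved this count. It was 1 without replicate 3 of CON (0.428% of all genes then called higher), 2 without replicate 2 or 4 of CON or without replicate 1, 2 or 3 of CsA, 3 without replicate 1 of CON and 6 without replicate 4 of CsA (3.17%). Without both replicate 4 of CsA and replicate 3 of CON, a choice made after seeing the data, it was 5 (2.1%). Only tetur05g92632 was called in each of these settings. The 2 added without replicate 4 of CsA were tetur01g13180 and tetur13g01520. For the settings with a count of 2 or 3 the share of all genes was not counted.

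Short of the FC of 1.5, the M13 peptidase tetur01g13180 had 30.1, 29.0, 31.5 and 22.1 CPM with CsA, against 18.96, 21.5, 21.1 and 23.7 CPM in CON (log2 FC 0.50, SE 0.13, adjusted p = 0.0200, edgeR). Only replicate 4 of CsA fell within the CON range. The hypothetical protein tetur11g90931 had 8.01, 9.19, 7.21 and 10.59 CPM with CsA, against 10.8, 14.3, 15.8 and 9.83 CPM in CON (log2 FC −0.42, SE 0.13, adjusted p = 0.0443, edgeR), with 1 CsA library above 1 CON library.

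**Figure D5:**
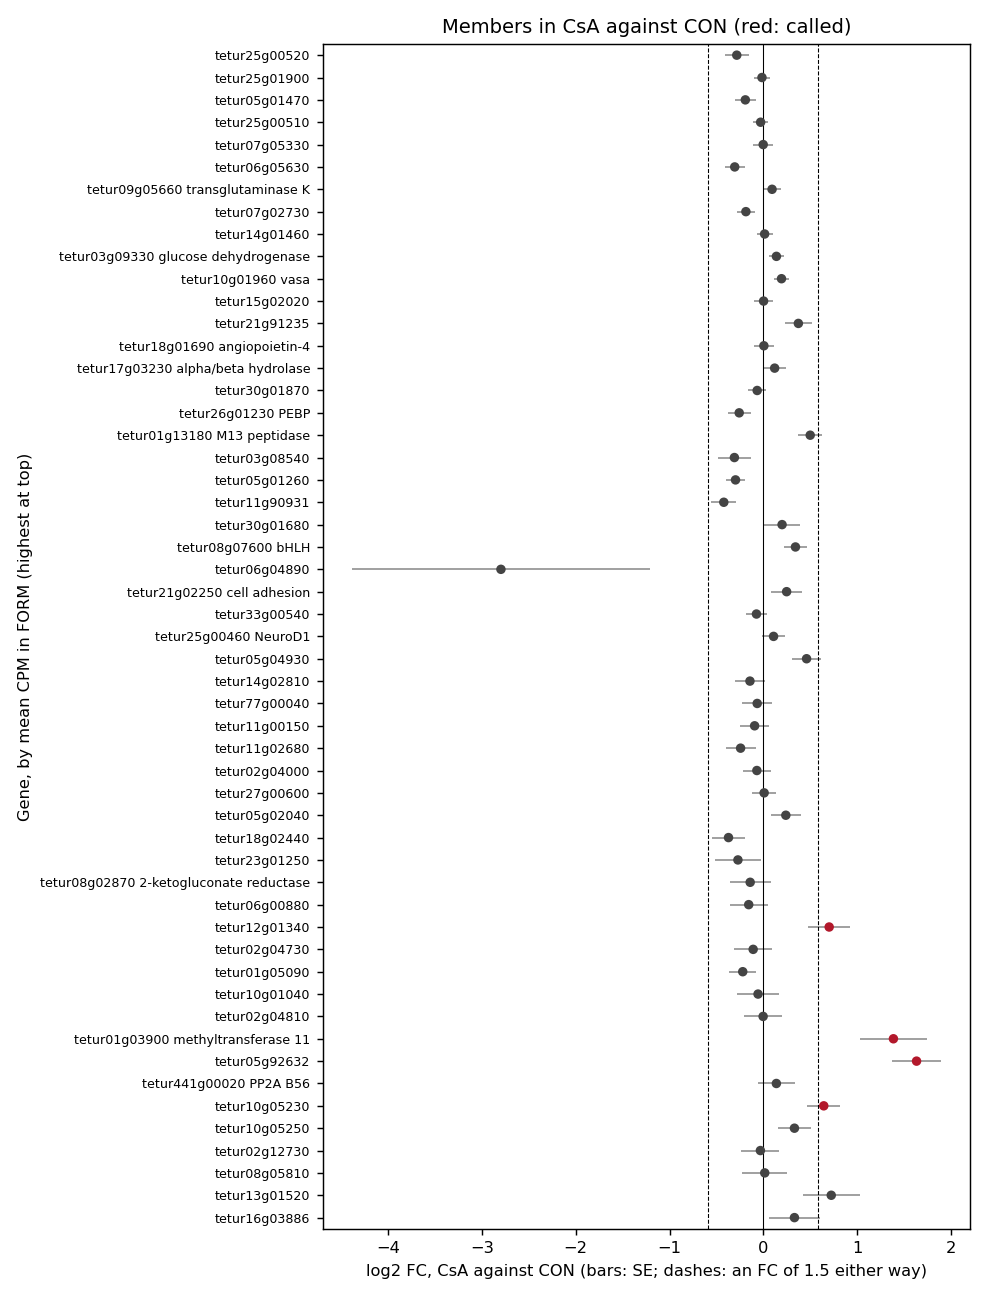
Log2 FC of CsA against CON for each member (points, with SE as bars), ordered by mean CPM in FORM from top to bottom. The 4 members called (red) all have fewer than 10 CPM in FORM, while the 12 members with the most reads lie between −0.31 and 0.19.

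The precision differed with the number of reads. The SE of this log2 FC was 0.08 to 0.13 for the 12 members over 100 CPM, 0.10 to 0.19 for the 11 between 10 and 100 CPM and 0.11 to 1.58 for the 30 under 10 CPM. The last group held all 4 calls. The other described members had log2 FC of −0.26 (tetur26g01230) to 0.34 (tetur08g07600) between CsA and CON, and none of these was called.

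Some members neighbour each other by gene number. The genes tetur25g00510 and tetur25g00520, both hypothetical, have consecutive IDs in the count table, and 4 genes separate tetur25g00460 from the pair. A single gene separates tetur10g05230 from tetur10g05250, and 6 separate tetur02g04730 from tetur02g04810. The 53 members lie on 26 of the 235 scaffolds with a tested gene, 12 of which hold 1 member, and scaffold 25 holds 4 members among 159 tested genes.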

How the data were processed

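Reads were checked by the authors with FastQC 0.11.4, aligned with STAR 2.5.0a, sorted with SAMtools 0.1.19 and counted per gene with HTSeq 0.6.0 on exons, with the strand kept. The deposited table holds the authors' raw counts of 19087 genes and 24 libraries. By default HTSeq drops multi-mapping reads, so near-identical genes may be undercounted. Members and gene lists were chosen with earlier results of these data known.

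CPM were computed on library totals. Tests were run on the counts with edgeR 4.0.16 under R 4.3.3: filterByExpr on the 6 groups kept 12736 genes, libraries were scaled by TMM, and 1 quasi-likelihood model with a mean per group was fitted. P-values were adjusted by Benjamini-Hochberg over all genes tested, and calls required a value under 0.05 together with a change of 1.5-fold or more in either direction. The common dispersion corresponds to a biological coefficient of variation of 9.80%. CPM in the text are on library totals and log2 FC on TMM-scaled sizes. The script was tested on simulated counts.

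Named were all members described other than as hypothetical, the 10 with the lowest mean difference, the 5 with the most CPM in FORM, those called between CsA and CON and the 5 on each side of the threshold. The gene tetur11g90931 and the second vasa gene tetur10g01980 were named after their values were seen, as were tetur02g04730, tetur05g01260, tetur11g02680 and the genes given as neighbours. Alternatives were DESeq2 1.42.0, other size factors and filters, a fit of 2 groups, a replicate block, a test against an FC of 1.5 and each library left out. No sequence is shown, since the reference at hand uses other gene IDs. Supplementary tables of the study gave descriptions only.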

Additional observations from a re-analysis of the deposited data

Results flagged for a closer look

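For each named member and for the median of the members, the 4 libraries of a group were searched for 1 that lies far from the other 3, by Dixon's ratio of its gap to the nearest over the range of the group at its usual critical value. This was met in 12 of 180 groups of 4 libraries, or 6.67%, and chance gives about 1 in 20.

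Of these, 3 concern tetur06g04890: replicate 3 of PBO had 4.61 CPM (the others 0.240 to 0.607), replicate 2 of DEM had 9.16 CPM (0.172 to 0.330) and replicate 3 of CON had 11.9 CPM (0.335 to 0.746).

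Replicate 1 of DEM stood low for tetur05g01470 at 589 CPM (the others 803 to 843), for tetur06g05630 at 319 CPM (456 to 483) and for the median of the members at −0.229 on the log2 scale (0.07 to 0.12). The median of all genes tested was −0.11 in that library, and the most abundant gene took 7.69% of its counts, against 5.00 to 5.32% in the other DEM libraries. Their part in the members' levels was not tested.

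With PBO, replicate 3 stood high for tetur01g03900 at 1.97 CPM (1.38 to 1.46) and for tetur05g01470 at 607 CPM (537 to 546). Replicate 4 of PBO stood low for tetur01g13180 at 11.1 CPM (14.9 to 15.05) and high for tetur02g04810 at 1.99 CPM (1.14 to 1.23). Replicate 3 of CON stood high for tetur441g00020 at 4.61 CPM (2.89 to 3.16), and replicate 3 of FORM for tetur33g00540 at 9.81 CPM (7.71 to 8.04).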

How the results depend on the processing

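The 53 members depended on the scale and control used. All 53 stayed with TMM-scaled sizes (55 genes passed) and with DESeq2 size factors (57). A pseudocount of 1 left 35, and a FORM mean of at least 5 CPM left 34. With CON in place of FORM 167 genes passed, 45 of them members, and with CON and FORM pooled 83, 46 of them members. With group medians in place of group means 52 genes passed, of which only 39 were members. Leaving out 1 library gave 36 to 64 genes, the fewest without replicate 1 of DEF and the most without replicate 1 of FORM.

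The count of members called higher with CsA than in CON, 4, was 1 in a test against an FC of 1.5 and 1 in a fit of the 2 groups only, and 1 to 6 with a library left out. The count called lower was 1 by the adjusted p alone and 0 to 0 with a library left out. A test against an FC of 1.5 called 0 members lower with PBO and 3 with DEF against FORM, and 2 with PBO and 5 with DEF against CON. With a library left out, members called lower ran from 29 to 39 with PBO and 30 to 42 with DEF against FORM, and from 33 to 39 with PBO and 35 to 42 with DEF against CON. Without both replicate 4 of CsA and replicate 3 of CON, a setting chosen after seeing the data, 5 members were called higher (2.1% of all genes) and 0 lower (0.739%) with CsA than in CON, 30 lower with PBO and 38 with DEF. Other alternatives kept these counts within 1.5 times. The cause of these differences was not tested. Shares of all genes were not counted for DESeq2, for the test against an FC of 1.5 or for other settings given without a share. Those counts, here and above, describe the members only.

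Replicate numbers were not taken as pairs, since in none of the 8 comparisons did all same-numbered libraries deviate together with a correlation over 0.1. These correlations were −0.097 to 0.146 for CsA and CON, 0.067 to 0.189 for DEF and CON and 0.0015 to 0.208 for DEF and FORM. At most 5 of 8 libraries correlated best with their own number, for DEF and CON. With the replicate block 4 members were called higher and 0 lower with CsA than in CON, 36 lower with PBO and 46 with DEF than in FORM, and 38 lower with PBO and 40 with DEF than in CON. No named member reversed its sign as a call. Depth limits the 30 members under 10 CPM most: their lowest library count was 1, against 65 for those of 10 to 100 CPM and 916 for those over 100 CPM.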
